A study of Mus musculus with 10 samples.

Results

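The genes described here encode the main vascular growth signals of the heart: Vegfa and Vegfb with the receptors Kdr, Flt1 and Nrp1, the angiopoietins Angpt1 and Angpt2 with the receptor Tek, and apelin (Apln) with its receptor Aplnr. They were chosen by symbol. Of the 10 genes, 9 had a row of their own among the 23303 rows of the expression table, and Nrp1 occurred in a row joined with the microRNA gene Mir1903. The data are transcript levels in the left ventricle of 10 male mice of strain 129X1/SvJ, 5 labelled CKD (chronic kidney disease) and 5 labelled Sham under surgery, in a study of uremic cardiomyopathy, the heart disease of kidney failure. The design text calls the controls normal mice. The labels name neither the operation nor the age of the mice, give no other genotype, treatment or time, and do not say how severe the kidney disease was. Each library was made from polyadenylated RNA of 1 ventricle, so a level is an average over muscle cells, endothelium, mural cells, fibroblasts and leukocytes.

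Vegfa is released by heart muscle and other cells and acts on endothelial cells through Kdr, the main signalling receptor. Flt1 binds Vegfa and Vegfb tightly but signals weakly, and acts partly as a decoy, also in a soluble form. Nrp1 is a co-receptor of Kdr and also a receptor for class 3 semaphorins. Angpt1 comes from mural and other cells around the vessel and activates Tek on the endothelium, which keeps vessels tight and quiescent; Angpt2 is released by the endothelium itself and can oppose it. Apelin is made by sprouting endothelial cells and by heart muscle, and its receptor raises cardiac contractility and widens vessels.

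Values are FPKM, fragments per kilobase of transcript scaled to the mapped fragments of the library. The unit is meant to let levels of different genes be set side by side. Differences between groups are given as log2 of FPKM + 0.5, CKD minus Sham, from limma fitted to all 11651 genes with a mean of at least 1 FPKM, with p-values adjusted by the Benjamini-Hochberg method over those genes. All 10 genes passed this filter. The threshold was an adjusted p of 0.05, which 5.29% of the tested genes passed (3.17% higher and 2.12% lower in CKD). An unadjusted p under 0.05 was reached by 2275 of the 11651 genes. Without CKD 1 and Sham 1, described next, 4.75% passed (2.62% higher and 2.14% lower). FPKM ranges of the groups did not overlap for 7.28% of tested genes, 4.1% with CKD higher and 3.18% with CKD lower.

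CKD 1 and Sham 1 differed technically from the other 8 libraries. Among genes above 0 and up to 0.2 FPKM, where a value reflects very few reads, 27.0% to 31.4% of genes had the same ratio between any 2 of the other 8 libraries, to about 1%. That share was 1.57% to 2.01% where 1 of the pair was CKD 1 or Sham 1, and 8.03% between these 2 libraries. The 8 libraries had relative depths of 0.906 to 1.15 times that of Sham 2 by this measure. The total depth behind a value is unknown. The table listed the heart muscle markers Myh6 and Atp2a2 at 0 in all 10 libraries, while the other 12 cardiomyocyte markers summed to between 74152 and 94377 FPKM. Why Myh6 and Atp2a2 were at 0 was not tested, nor whether listed levels of other genes are affected. Orders of level and ratios between genes are therefore given only as listed.

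Angpt1 fell in CKD, and none of the other 9 genes passed the test in either direction. Angpt1 was at 9.19, 8.90, 9.55, 8.76 and 8.63 FPKM in CKD 1 to CKD 5 and at 13.0, 13.7, 18.0, 16.2 and 14.7 FPKM in Sham 1 to Sham 5. Every CKD mouse lay below every Sham mouse, with a gap of 3.45 FPKM between the groups. FPKM ranges separated in this way, with CKD lower, for 3.18% of tested genes. The Sham mean was 15.1 ± 2.00 FPKM and the CKD mean 9.005 ± 0.368 (SD over 5 mice each), a fold of 0.612 (95% interval 0.540 to 0.693; log2 -0.71, SE 0.08, limma adjusted p = 0.000962). The CKD mice were tightly grouped, with a coefficient of variation of 4.09% against 13.2% in Sham. Angpt1 held place 9 by p and place 25 by size of fall among the 247 genes called lower. Leaving out both libraries that stood apart gave a change of -0.77 (adjusted p = 0.00297), and it passed in all 22 alternatives run (log2 -0.77 to -0.65, highest adjusted p = 0.0111). The gene lies on chromosome 15 from 42424667 to 42676977 in GRCm38, the assembly that mm10 denotes.

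In bulk tissue, fewer cells that make Angpt1 and less Angpt1 RNA per cell cannot be told apart. The summed level of 10 pericyte markers was 308 to 344 FPKM in CKD and 310 to 343 in Sham. That sum is dominated by Rgs5 and Abcc9, and 7 of the 10 markers had a positive change. The mean log2 level of the 10 markers, each weighted alike, was 0.08, 0.24, 0.05, 0.15 and 0.10 above the Sham mean in CKD 1 to CKD 5, against -0.05, -0.05, -0.01, -0.01 and 0.11 in Sham 1 to Sham 5. Of these markers 1 rose, Mcam, a vascular adhesion molecule (log2 0.47, adjusted p = 0.0234; not passed in 5 of 10 fits that left out 1 library), and none fell. Summed fibroblast markers (8 genes) were at 1244 to 1431 FPKM in CKD and 1165 to 1270 in Sham, with 3 higher. Gsn and Dcn dominate that sum, and 7 of the 8 had a positive change. Weighted alike, their mean log2 level relative to the Sham mean was 0.13 to 0.34 in CKD mice and -0.13 to 0.08 in Sham mice. Of 4 tested smooth muscle markers 3 had a positive change and none passed. Weighted alike, they were at 0.08 to 0.18 in CKD mice and -0.30 to 0.29 in Sham mice. Of 12 tested cardiomyocyte markers 5 had a positive change and none passed. Weighted alike, they were at -0.26 to 0.07 in CKD mice and -0.14 to 0.07 in Sham mice. Summed endothelial markers (24 genes) were at 1730 to 2401 and 1865 to 2214, with 1 higher and none lower. Fabp4 dominates that sum, and 19 of the 24 had a positive change. Weighted alike, they were at -0.03 to 0.16 and -0.07 to 0.14. Of all tested genes, 3.17% were higher and 2.12% lower. The endothelial gene that passed was Podxl, a sialomucin of the luminal surface (log2 0.39, adjusted p = 0.0238), whose call was lost when CKD 3 (0.0578), Sham 4 (0.0614) or both libraries that stood apart (0.0539) were left out. With the mean endothelial marker level of each mouse as a term in the fit, the Angpt1 change was -0.68 (adjusted p = 0.0111). Over all tested genes that fit called 192 higher and 93 lower, against 369 and 247 without the term, so many calls were lost in it. In that fit neither Podxl (log2 0.39, 0.0857), itself 1 of the 24 markers in the term, nor Mcam (log2 0.40, 0.125) passed. The Podxl change was 0.39 without the term as well.

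**Figure D1:**
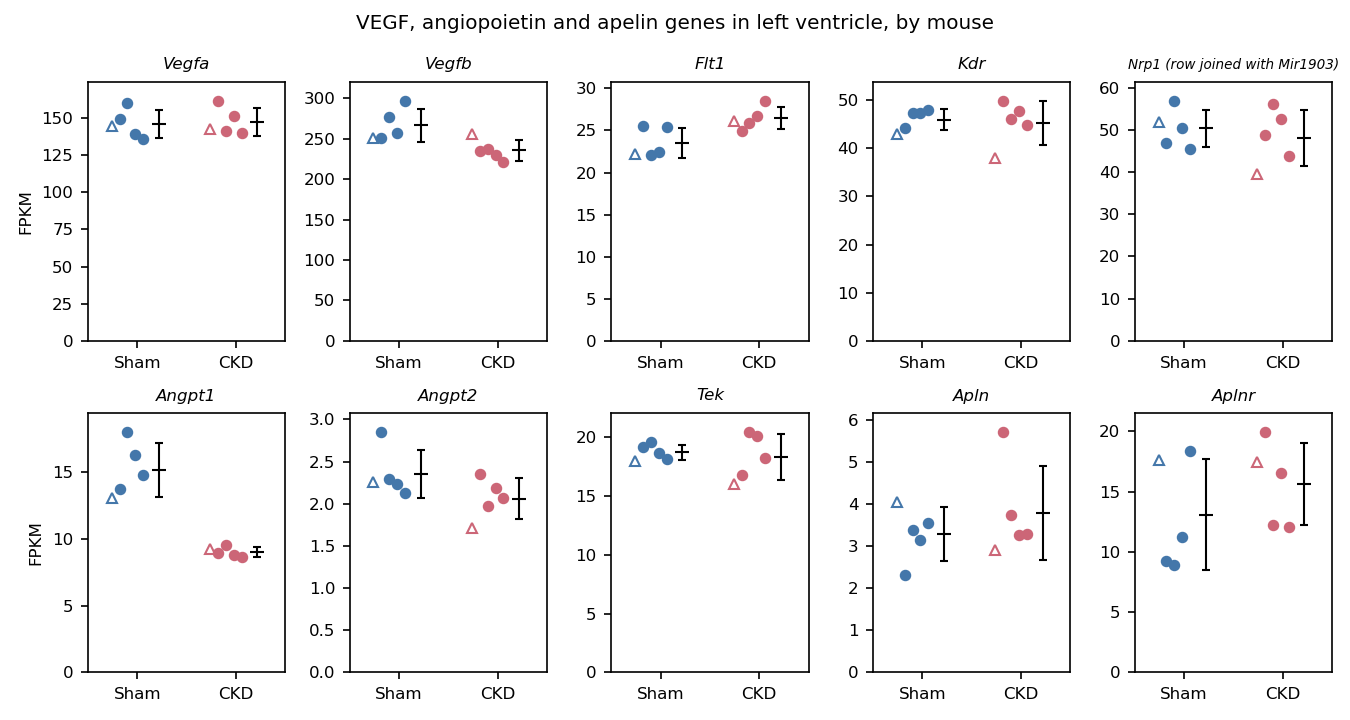
FPKM of the 10 genes in each mouse (points; 5 Sham and 5 CKD; open triangles are Sham 1 and CKD 1). Black marks give mean and SD of a group, and each vertical axis starts at 0. Angpt1 is the gene whose groups do not overlap, at 8.63 to 9.55 FPKM in CKD and 13.0 to 18.0 in Sham.

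Tek, the tyrosine kinase receptor of the angiopoietins (chromosome 4, 94739086 to 94874976), was at 16.0, 16.8, 20.4, 20.1 and 18.2 FPKM in CKD 1 to CKD 5 and at 18.0, 19.2, 19.6, 18.7 and 18.2 FPKM in Sham 1 to Sham 5. The Sham values lay inside the CKD range. The difference was -0.04 (log2, 95% interval -0.19 to 0.12, adjusted p = 0.846), so a change of Tek beyond a fold of 0.875 to 1.09 was outside the interval. Angpt2, the other angiopoietin (chromosome 8, 18690263 to 18741562), was the lowest of the 10 genes. It was at 1.71, 2.36, 1.97, 2.18 and 2.07 FPKM in CKD and at 2.25, 2.85, 2.30, 2.23 and 2.13 FPKM in Sham. The ranges overlapped, with 3 of 5 CKD mice below all Sham mice and Sham 2 above the rest (log2 -0.16, SE 0.10, adjusted p = 0.423).

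Ratios within a library place ligand and receptor side by side; they are given as a description of 10 such ratios and were not tested. The ratio of Angpt1 to Tek was 0.574, 0.531, 0.467, 0.435 and 0.473 in CKD 1 to CKD 5 and 0.723, 0.714, 0.917, 0.870 and 0.810 in Sham 1 to Sham 5. These ranges did not overlap. The log2 difference of this ratio between groups, -0.70, was close to that of Angpt1 alone, -0.71. How often the ranges of ratios separate for other gene pairs was not counted. The ratio of Angpt1 to Angpt2 was 4.43 ± 0.656 in CKD and 6.52 ± 1.21 in Sham, and its ranges did overlap (3.78 to 5.37 and 4.81 to 7.82).

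**Figure D2:**
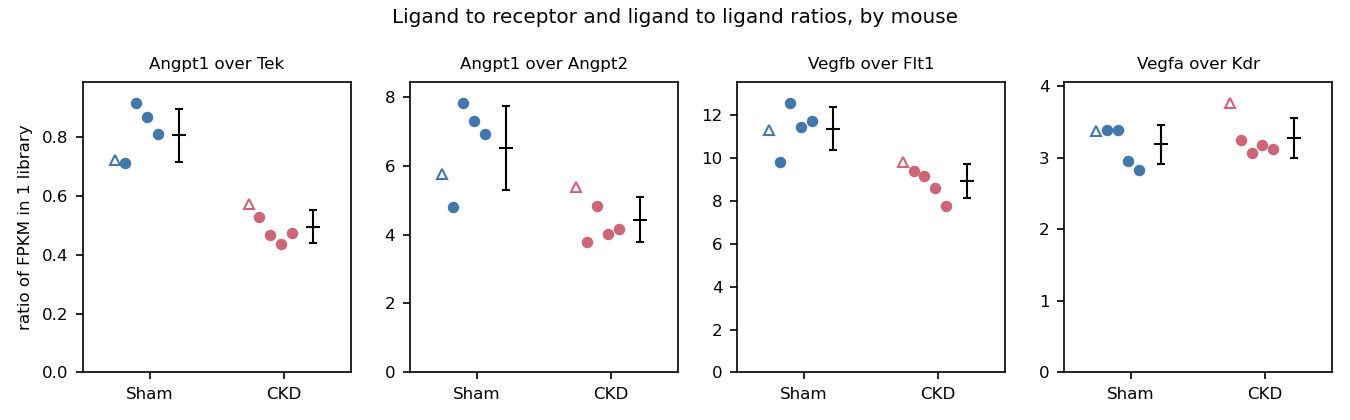
Ratio of FPKM of 2 genes within each library (points; 5 Sham and 5 CKD; open triangles are Sham 1 and CKD 1). Black marks give mean and SD of a group, and axes start at 0. The Angpt1 to Tek ratio is 0.435 to 0.574 in CKD and 0.714 to 0.917 in Sham, the Vegfb to Flt1 ratio is lower in every CKD mouse than in every Sham mouse, and the Vegfa to Kdr ratio overlaps. The ratios were not tested.

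By the rule of smallest mean absolute difference between log2 deviations from the Sham mean over the 10 libraries, the genes most like Angpt1 were Ramp1 (difference 0.09), Stard10 (0.10) and Art4 (0.11). Ramp1 is a partner protein of the calcitonin receptor-like receptor, Stard10 a lipid transfer protein and Art4 a surface protein of the ADP-ribosyltransferase family. Their levels were 0.934 ± 0.135 against 1.83 ± 0.417 FPKM, 13.2 ± 0.612 against 20.4 ± 1.83 and 14.7 ± 1.43 against 22.2 ± 2.17 (CKD against Sham, SD, n = 5 each). Their changes were -0.69, -0.61 and -0.58 (log2), which the choice by likeness to Angpt1 largely fixed. These likenesses rest on the shared fall between groups.

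Vegfa, the principal ligand of the family (chromosome 17, 46016993 to 46032377), was at 143, 162, 141, 151 and 140 FPKM in CKD 1 to CKD 5 and at 145, 149, 160, 139 and 135 FPKM in Sham 1 to Sham 5. The groups covered nearly the same range. The difference was 0.01 (log2, SE 0.06, adjusted p = 0.937), with a 95% interval for the fold of 0.925 to 1.102, and its sign differed between alternatives. The table holds 1 value per gene, so splice forms of Vegfa cannot be separated.

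Vegfb, a ligand of Flt1 that does not bind Kdr (chromosome 19, 6982472 to 6987651), was the most abundant of the 10 genes, with a mean above that of 97.1% of tested genes. It was at 256, 234, 237, 230 and 221 FPKM in CKD 1 to CKD 5 and at 251, 250, 277, 256 and 297 FPKM in Sham 1 to Sham 5. Of the CKD mice, 4 of 5 lay below all Sham mice, and CKD 1 lay within the Sham range. The difference did not pass (log2 -0.17, SE 0.06, unadjusted p = 0.0119, limma adjusted p = 0.115). It passed with sample weights (-0.19, adjusted p = 0.0372) and was at -0.22 over the 8 other libraries alone (0.0521).

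Flt1, the receptor shared by both ligands (chromosome 5, 147561604 to 147726438), was at 26.2, 24.99, 25.9, 26.8 and 28.5 FPKM in CKD 1 to CKD 5 and at 22.2, 25.5, 22.1, 22.4 and 25.4 FPKM in Sham 1 to Sham 5. All but CKD 2 lay above all Sham mice. This difference did not pass either (log2 0.17, SE 0.06, unadjusted p = 0.0169, limma adjusted p = 0.141), in any of the 22 alternatives (lowest adjusted p = 0.0804). The membrane-bound and soluble forms of Flt1 share a row. The ratio of Vegfb to Flt1 was 9.80, 9.37, 9.15, 8.60 and 7.74 in CKD 1 to CKD 5 and 11.3, 9.82, 12.6, 11.5 and 11.7 in Sham 1 to Sham 5. Its ranges were narrowly separated, between CKD 1 and Sham 2. The ratio sets a gene with a negative change over a gene with a positive change, and neither change passed. The ratio itself was not tested.

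Kdr (chromosome 5, 75932827 to 75979072) was at 37.9, 49.8, 45.9, 47.6 and 44.8 FPKM in CKD 1 to CKD 5 and at 42.9, 44.1, 47.2, 47.3 and 48.0 FPKM in Sham 1 to Sham 5. CKD 1 was the lowest and CKD 2 the highest of all 10 mice. The difference was -0.03 (log2, 95% interval -0.18 to 0.13, adjusted p = 0.893), and 0.03 without CKD 1. CKD 1 also had the lowest endothelial marker level among the CKD mice. Relative to the Sham mean it was at -0.03 on the log2 scale, against 0.07 to 0.16 in the other 4. Sham 1, the other library that stood apart, was likewise lowest among Sham mice in Kdr and in endothelial marker level (-0.07). Both were also lowest of their groups in cardiomyocyte marker level (-0.26 in CKD 1, -0.14 in Sham 1). With a term for CKD 1 and Sham 1 the Kdr change was -0.03 (SE 0.048, against 0.071 without the term). The part of marker levels or of technical differences in the Kdr values was not tested. The ratio of Vegfa to Kdr was 3.27 ± 0.280 in CKD and 3.18 ± 0.276 in Sham. The ratio of Flt1 to Kdr, decoy to signalling receptor, was 0.591 ± 0.0734 in CKD and 0.513 ± 0.0451 in Sham, with overlapping ranges (0.501 to 0.690 and 0.467 to 0.578).

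The row of Nrp1 was joined with Mir1903, whose hairpin of 80 bases lies inside the RefSeq span of Nrp1, on chromosome 8 from 128359241 to 128359320 in GRCm38.p6, plus strand. The libraries were made from polyadenylated RNA, and whether any read in the row came from Mir1903 was not tested. The mature RNA of Mir1903 is shown because its gene shares the row. The seed, bases 2 to 8, is in capitals and the sequence is from RefSeq.
mmu-miR-1903: cCUUCUUCuucuuccugagaca
The joined row was at 39.6, 48.9, 56.0, 52.5 and 43.7 FPKM in CKD 1 to CKD 5 and at 51.8, 47.0, 56.9, 50.5 and 45.4 FPKM in Sham 1 to Sham 5. The groups overlapped over nearly the whole range (log2 -0.07, SE 0.09, adjusted p = 0.754). It is not counted among the rows called or not called below.

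Apln, the ligand (chromosome X, 48025146 to 48034853), was at 2.91, 5.71, 3.74, 3.26 and 3.28 FPKM in CKD 1 to CKD 5 and at 4.05, 2.32, 3.38, 3.14 and 3.55 FPKM in Sham 1 to Sham 5. Apart from CKD 2, the CKD mice lay within the Sham range. The difference was 0.16 (log2, SE 0.17, adjusted p = 0.667), and 0.02 without CKD 2. Aplnr, its G protein-coupled receptor (chromosome 2, 85136360 to 85139923), varied more among Sham mice than any other of the 10 genes, with a coefficient of variation of 34.9%. It was at 17.5, 19.9, 12.2, 16.5 and 12.0 FPKM in CKD and at 17.6, 9.27, 8.95, 11.3 and 18.4 FPKM in Sham. Sham 1 and Sham 5 were level with the higher CKD mice and the other 3 Sham mice lay below all CKD mice (log2 0.29, 95% interval -0.18 to 0.75, adjusted p = 0.514). A fold of up to 1.69 for Aplnr and 1.44 for Apln was within the 95% intervals. The group changes of these 2 genes are thus bounded less tightly here than those of Vegfa or Tek. The ratio of Aplnr to Apln was 4.30 ± 1.19 in CKD and 3.95 ± 0.934 in Sham, and its ranges overlapped.

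**Figure D3:**
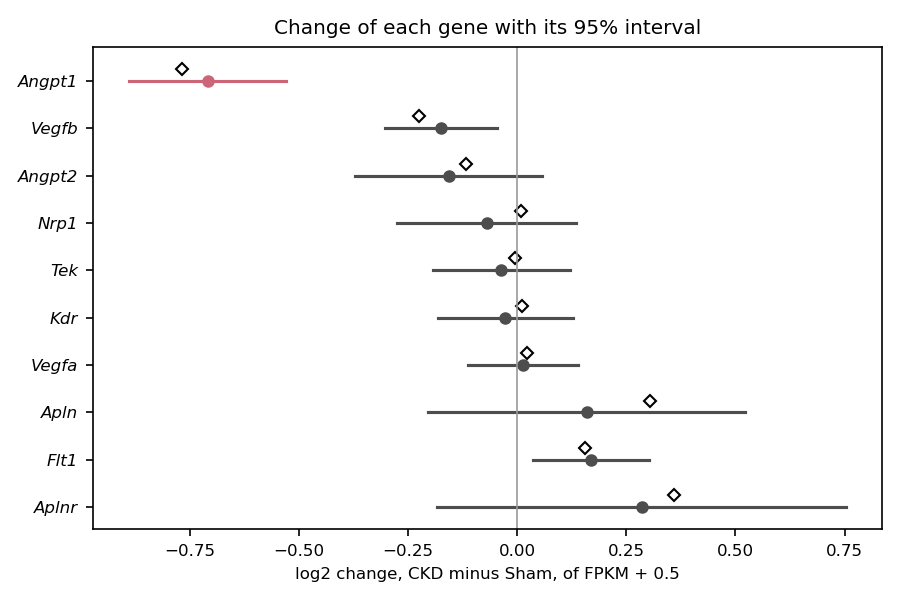
Log2 change of each gene (circles) with its 95% interval (lines), from limma over 5 CKD and 5 Sham mice; open diamonds are the change without both CKD 1 and Sham 1, and the gene past the threshold is in red. Angpt1 lies at -0.71, and the other circles lie between -0.17 and 0.29.

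In Sham mice the levels ran from Vegfb (266 FPKM) through Vegfa (146), Nrp1 (50.3), Kdr (45.9), Flt1 (23.5), Tek (18.7), Angpt1 (15.1), Aplnr (13.1) and Apln (3.29) to Angpt2 (2.35). The ranges over mice of neighbours overlapped for Nrp1 and Kdr, for Angpt1 and Aplnr, and for Apln and Angpt2, and not for the other neighbours. In CKD mice Angpt1 stood below Aplnr, with ranges that did not overlap (8.63 to 9.55 and 12.0 to 19.9 FPKM), and the order of the other genes was the same. Over the 9 genes with their own row, 4 changes were positive and 5 negative, with a median of -0.03 (log2) against -0.0035 over all tested genes. Of these 9 genes 1 was called lower, where 2.12% of all tested genes were called lower and 5.29% in either direction. Without CKD 1 and Sham 1 the count called was the same, 1 lower and none higher, with a median of 0.01. In that fit 2.14% of all tested genes were lower and 2.62% higher.

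The wider signalling genes were taken from 6 lists. Among 12 tested other ligands and receptors of these families, 2 rose and none fell, against 3.17% and 2.12% of all tested genes (median log2 0.10). Svep1, a large extracellular matrix protein that binds the receptor Tie1, rose from 2.66 ± 0.133 to 4.46 ± 0.139 FPKM (SD, n = 5 each; log2 0.65, limma adjusted p = 0.000698). Sema3f, a semaphorin that binds Nrp2, rose from 6.30 ± 0.735 to 9.78 ± 2.04 FPKM (log2 0.58, adjusted p = 0.0234). Its call was lost without CKD 2 (0.0541), CKD 5 (0.0508), Sham 1 (0.0539) or Sham 4 (0.0606), over the 8 libraries alone (0.0832) and with the mean endothelial marker level as a term, where the change was 0.59 (log2, 0.0855). Pgf, placental growth factor, a further Flt1 ligand, had a CKD level of 6.34 ± 0.999 FPKM and a Sham level of 7.81 ± 1.33 (adjusted p = 0.235). Ptprb, the phosphatase that restrains Tek, had levels of 18.8 ± 3.47 and 20.5 ± 2.91 FPKM (adjusted p = 0.645). Tie1, the partner receptor of Tek, differed by 0.10 (log2, adjusted p = 0.369) and Flt4, the lymphatic VEGF receptor, by 0.11 (0.513). Angpt4, Sema3a and Apela, another ligand of Aplnr, were below the filter.

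Of 18 tested genes of receptor signalling and endothelial targets, 2 rose and 1 fell, against 3.17% and 2.12% of all tested genes (median log2 0.09). Grb14, an adaptor that binds receptor tyrosine kinases including the insulin receptor and Tek, fell from 135 ± 7.98 to 107 ± 6.66 FPKM (log2 -0.34, limma adjusted p = 0.00618). Stab1, a scavenger receptor of sinusoidal endothelium and of macrophages, rose from 14.6 ± 1.64 to 19.1 ± 1.19 FPKM (log2 0.38, adjusted p = 0.0183). Dok2, an adaptor downstream of Tek that is also a leukocyte gene, rose from 1.75 ± 0.256 to 2.90 ± 0.764 FPKM (log2 0.57, adjusted p = 0.0493). Leaving out CKD 3 or CKD 5 kept the call of Dok2, and leaving out any 1 of the other 8 mice ended it (highest adjusted p = 0.119), as did leaving out CKD 1 together with Sham 1 (0.151). It was also lost with the endothelial term (log2 0.61, 0.124) and with no filter on low levels (0.0773). A pseudocount of 1 (0.0510), libraries scaled to the same total (0.0573), quantile normalization (0.0565) and sample weights (0.0528) ended it too. In all, the Dok2 call was lost in 15 of 21 alternatives. Akt1, a kinase downstream of Kdr and Tek, was at 111 to 136 FPKM in CKD and 88.0 to 109 in Sham, without overlap; it did not pass (log2 0.24, adjusted p = 0.0732) but did over the 8 libraries alone (log2 0.22, 0.0429). Of 9 tested macrophage genes, 5 were higher in CKD as well and none lower, against 3.17% and 2.12% of all tested genes. Weighted alike, macrophage markers were highest in CKD 5, at 0.97 above the Sham mean (log2). Without CKD 5 the Dok2 change was 0.67 and that of Stab1 0.38. The summed macrophage level was 381 to 552 FPKM in CKD and 270 to 327 in Sham. The count of higher macrophage genes was 4 without CKD 1 and over the 8 libraries alone. Csf1r, a macrophage growth factor receptor, lost its call there (0.0517 and 0.0846), and in 10 of 22 alternatives in all. The part of macrophages in the Stab1 and Dok2 values was not tested. Egr3, an early response gene that Vegfa induces, averaged 4.12 ± 1.23 FPKM in CKD mice and 6.37 ± 4.47 in Sham mice (adjusted p = 0.818), and Nos3, the endothelial nitric oxide synthase, differed by 0.18 (log2, adjusted p = 0.238).

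Of 13 genes of the Notch pathway and of artery and vein identity, none passed in either direction (median log2 0.11). An unadjusted p below 0.05 was found for 3, Ephb4, Notch4 and Jag1, against 2275 of all 11651 tested genes. Ephb4, a receptor of venous endothelium, averaged 22.2 ± 0.741 FPKM in CKD mice and 18.2 ± 2.25 in Sham mice (adjusted p = 0.0578), and Notch4, an endothelial Notch receptor, at 10.9 ± 1.25 and 8.63 ± 1.21 (adjusted p = 0.0952). Efnb2, the arterial ligand of Ephb4, was at 8.23 ± 1.16 and 9.43 ± 1.14 FPKM (adjusted p = 0.365), and Heyl, a Notch target, at 7.74 ± 1.38 and 8.91 ± 1.32 (0.446).

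Of 13 genes typical of tip cells, the leading cells of vessel sprouts, 2 rose and none fell (median log2 0.15). Of all tested genes 3.17% rose and 2.12% fell. Apln and Angpt2 belong to the tip cell list too. Cd34, a sialomucin of capillary endothelium and of some stromal cells, rose from 65.3 ± 3.35 to 82.3 ± 6.89 FPKM (log2 0.33, limma adjusted p = 0.0119); with the endothelial marker level as a term the change was 0.27 and did not pass (0.0751). Ramp3, which makes the calcitonin receptor-like receptor a receptor for adrenomedullin, rose from 5.74 ± 1.41 to 8.96 ± 1.19 FPKM (log2 0.62, adjusted p = 0.0378). Leaving out CKD 4, Sham 1 or Sham 2 kept the call of Ramp3, and leaving out any 1 of the other 7 mice ended it (highest adjusted p = 0.0974). It was also lost over the 8 libraries alone (log2 0.67, 0.0508), with no filter on low levels (0.0611) and with the endothelial term (log2 0.55, 0.155). Esm1, a Vegfa-induced tip cell protein, averaged 1.85 ± 0.581 FPKM in CKD mice and 1.76 ± 0.575 in Sham mice (adjusted p = 0.920).

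None of the 11 regulators of Vegfa passed in either direction (median log2 -0.10). Of them 2 had an unadjusted p below 0.05, as did 2275 of all 11651 tested genes. Esrra, a nuclear receptor that drives Vegfa with Ppargc1a, averaged 59.4 ± 4.24 FPKM in CKD mice and 69.2 ± 4.00 in Sham mice, with ranges that did not overlap (adjusted p = 0.0585). Egln1, the oxygen-sensing prolyl hydroxylase, was at 148 ± 11.2 and 166 ± 15.7 FPKM (adjusted p = 0.226). Ppargc1a was at 22.4 ± 5.37 and 20.9 ± 2.51 FPKM (adjusted p = 0.843) and Epas1, the HIF subunit abundant in endothelium, at 77.5 ± 2.78 and 76.7 ± 6.44 (adjusted p = 0.912).

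Among 12 tested inhibitors of angiogenesis, 2 rose and 2 fell, against 3.17% and 2.12% of all tested genes (median log2 0.01). Serpinf1, pigment epithelium-derived factor, rose from 16.6 ± 2.64 to 26.0 ± 3.45 FPKM (log2 0.63, limma adjusted p = 0.0102), and with the endothelial marker level as a term the change was 0.53 and did not pass (0.0722). Sparc, a matricellular protein that binds collagen and growth factors, rose from 211 ± 19.7 to 308 ± 41.2 FPKM (log2 0.54, adjusted p = 0.00606); both are also fibroblast products, and 3 of 8 fibroblast markers were higher, or 2 over the 8 libraries alone, where Col1a1 did not pass (log2 0.63, 0.0604). The part of fibroblasts in these values was not tested. Lect1, the cartilage and valve protein chondromodulin, fell from 5.47 ± 0.751 to 2.76 ± 0.574 FPKM (log2 -0.88, adjusted p = 0.00346). Thbs2, a matricellular thrombospondin, fell from 12.9 ± 0.674 to 8.95 ± 1.62 FPKM (log2 -0.52, adjusted p = 0.0233). The call of Thbs2 was lost without Sham 1 (0.0531), Sham 2 (0.0543) or Sham 3 (0.0568), over the 8 libraries alone (0.0639) and with the endothelial term (log2 -0.49, 0.104). Angptl4, a lipoprotein lipase inhibitor with effects on vessels, averaged 1.95 ± 1.62 FPKM in CKD mice and 4.43 ± 1.43 in Sham mice (adjusted p = 0.0905), and passed without CKD 1 (0.0152).

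**Figure D4:**
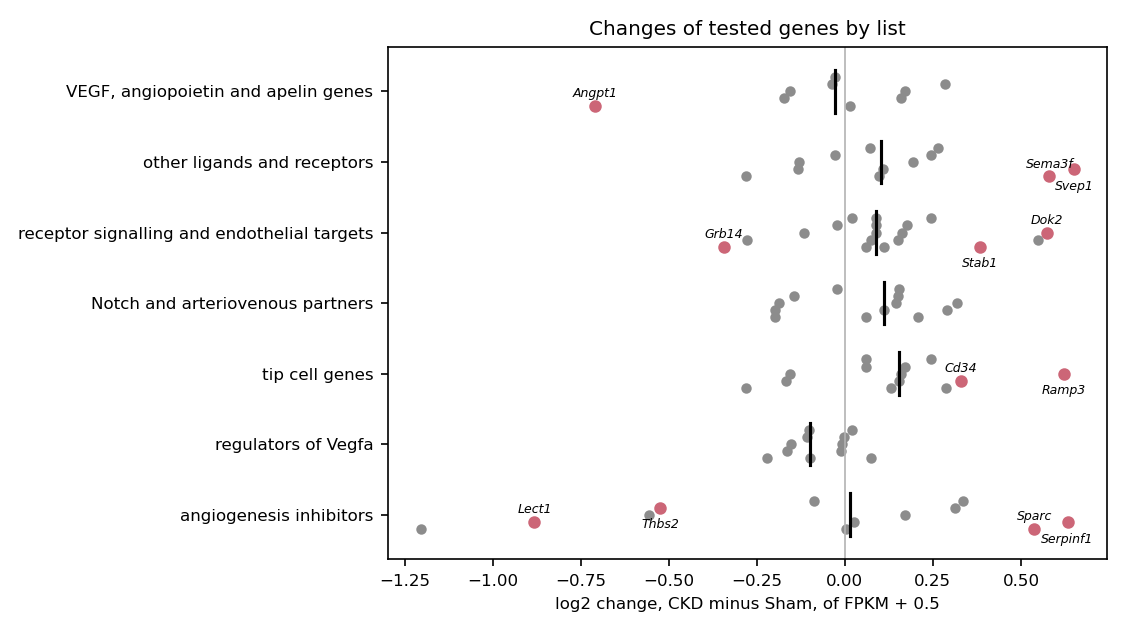
Log2 change, CKD minus Sham, of each tested gene in the lists (points), with the list median (vertical bar); red points passed the limma test over all genes, and the Nrp1 row is left out. Passing genes lie on both sides of 0, and the medians lie between -0.10 and 0.15.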

How the data were processed

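Left ventricular RNA of 10 mice was sequenced as single reads after TruSeq mRNA library preparation, per the labels' protocols. The authors deposited FPKM values, 1 per gene and library, and the submitters' processing notes name STAR 2.4.0f1, Cufflinks 2.1.1 and Cuffdiff 2.1.1 and the builds mm10 and hg19 without a role. Strand use and the handling of shared reads are not given in the sources used here. Libraries were matched to columns by the titles, and grouped by the surgery label; replicate numbers only name mice. No libraries held identical values (0 pairs), and 272 rows joined several genes.

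Log2(FPKM + 0.5) was fitted with limma 3.58.1 in R 4.3.3 (lmFit and eBayes, trend set for the variance, two-sided tests, threshold 0.05), keeping genes whose mean reached 1 FPKM. Each p-value weighs the difference between groups against the spread among the 5 mice within each group, moderated by limma over all tested genes. The step was tested on simulated data. Alternatives changed the pseudocount, filter, scaling or variance model, added the endothelial marker level, or left out libraries; a term for CKD 1 and Sham 1 was added after seeing the data. Named were all 10 genes, list genes that passed, the 2 of smallest p per direction and list, and the 3 genes most like Angpt1, leaving out clone and joined names. Tie1, Flt4, Nos3, Akt1, Esm1, Jag1, Angptl4, and the marker genes Mcam, Podxl, Rgs5, Abcc9, Gsn, Dcn, Fabp4, Csf1r and Col1a1 were named after their values were seen. The genes and lists were chosen with earlier results of these data known. Positions are from RefSeq for GRCm38.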

Additional observations from a re-analysis of the deposited data

Results flagged for a closer look

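In 40 groups of 5 values (10 genes and 10 ratios, each in CKD and in Sham), 2 had a mouse standing far from the other 4, and chance gives about 1 in 20, or 2 of 40. Angpt2 was highest in Sham 2, at 2.85 FPKM, with a gap to the next mouse of 0.770 of the group's range; without Sham 2 the Angpt2 difference was -0.10 (log2, limma adjusted p = 0.650). The Vegfa to Kdr ratio was highest among CKD mice in CKD 1, at 3.76, with a gap of 0.750 of the range.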

How the results depend on the processing

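Angpt1 passed in every alternative run; Tek, Kdr, Vegfa, Flt1, the Nrp1 row, Apln, Angpt2 and Aplnr passed in none. With sample weights 2 of the 9 genes with their own row were lower, the second being Vegfb, and Vegfa was at -0.0012 (log2). The number of genes higher was 369 and lower 247 over all tested genes. It was 192 and 93 with the endothelial marker level as a term, 573 and 479 with a term for CKD 1 and Sham 1, and 400 lower with sample weights. Leaving out 1 library gave 201 (without Sham 3) to 384 (without CKD 4) higher and 131 (without CKD 2) to 290 (without Sham 5) lower. Signs near 0 turned: Vegfa ranged from -0.0201 to 0.0479, Kdr from -0.0628 to 0.0348 and Tek from -0.0764 to 0.0093 when 1 library was left out, and without both CKD 1 and Sham 1 Kdr was at 0.011 and the Nrp1 row at 0.0088. The cause of these turns was not tested. At a filter of 5 FPKM, Angpt2 and Apln were not tested. No paired analysis was possible because the labels give no replicate numbers shared by the groups. FPKM carries no read number, so the depth limit for Angpt2, Apln and other low genes is unknown.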
